A study of Bos taurus with 48 samples.

Results

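COL1A1 (ENSBTAG00000013103), COL1A2 (ENSBTAG00000013472) and COL3A1 (ENSBTAG00000021466) are 3 of the 25669 genes in a count table of bovine blood leukocytes. They were chosen by their counts over all 48 libraries, namely because the 3 genes varied together and because their course over days differed between treatments. Levels, correlations and changes of the 3 genes between treatments or days are therefore descriptions and carry no test.

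The study asked how leukocyte transcripts respond when beef calves are weaned at housing, in 12 intact male, spring-born calves, given as Simmental by the study's methods and as Continental by the labels. The 6 control calves were housed in pens with their dam, and the 6 weaned calves were abruptly separated from their dam and penned with other weaned calves. Blood was taken by jugular venipuncture on d 0, before housing, and on d 1, 2 and 7, which gave 8 groups of 6 libraries with every calf present once on each day. Calves of both treatments had grazed with their dams, had been immunised against respiratory viruses before weaning, and were offered the same feed once housed. Housing thus forms part of both courses, and no group remained at pasture.

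Fibrillar collagens are the rope-forming proteins of skin, tendon, bone and the connective tissue of most organs. COL1A1 and COL1A2 encode the chains that assemble into the type I collagen triple helix, and COL3A1 encodes the chain of type III collagen, which forms finer fibrils in skin, vessel walls and other pliable tissue. Fibroblasts and related mesenchymal cells are the textbook source of the 3 transcripts, which are commonly expressed together, and leukocytes are not known as a main source.

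Total counts ranged from 1662995 to 4256011 per library, so that 3 counts, the limit that a count of 0 allows, stood for 0.686 to 2.08 CPM (counts per 1000000). On genes that distinguished the calves on d 0, 1 and 2, 10 of the 12 d 7 libraries were most alike their own calf. The d 7 library labelled weaned calf 1758 was most alike calf 1770 (r = 0.69, against 0.37 with its own calf), and the one labelled calf 1770 was most alike calf 1758 (r = 0.58, against 0.25). Both are weaned calves, so exchanging the labels would leave group means on d 7 as they are, and group means and changes of the 3 genes that use these libraries are also given without them. Of 17 gene lists used, those for neutrophils, T cells, B cells and monocytes had no member with a symbol, so the leukocyte label was not checked against its own markers.

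The 3 collagen transcripts were abundant in some libraries and near absent in others. COL1A1 had 5838 counts in all, between 0 and 616 per library with a median of 47. COL1A2 had 2873 counts, between 0 and 305 with a median of 17.5. For COL3A1 the total was 2486 counts, between 0 and 284 with a median of 20. The counts were concentrated: the 10 libraries with the most counts held 68.6% of all COL1A1 counts, 70.7% of those of COL1A2 and 68.5% of those of COL3A1. Among the libraries, 8 were within the 10 highest for each of the 3 genes. They came from weaned calves 1769 (d 0 and 1), 1770 (d 0) and 1809 (d 0) and from control calves 1759 (d 1), 1763 (d 2), 1789 (d 2) and 1803 (d 1). At the other end, 7 libraries had 3 counts or fewer for each of the 3 genes, and 2 libraries, control calf 1755 on d 1 and weaned calf 1758 on d 2, had 0 counts for all 3. Fewer cells that carry these transcripts and less of them per cell cannot be told apart in such bulk libraries.

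Few genes were as variable. On the scale of log2(CPM + 1), the SD over the 48 libraries was 2.27 for COL1A1, 2.03 for COL1A2 and 1.92 for COL3A1, against a median of 0.39 over the 12877 genes with at least 100 counts. Only 2 of those genes had a larger SD than COL1A1. Most of the spread lay between days of 1 calf rather than between calves. The SD within a calf was 2.11 for COL1A1, 1.90 for COL1A2 and 1.81 for COL3A1, and the intraclass correlation of the calf was 0.15, 0.13 and 0.11 in that order, against a median of 0.20 over the same 12877 genes.

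In control calves COL1A1, the chain that gives type I collagen most of its bulk, was already spread widely before housing. On d 0 its level ranged from 1.64 CPM (6 counts, calf 1759) to 65.6 CPM (228 counts, calf 1789) with a median of 16.4 CPM. The lowest, median and highest control levels were 0, 29.5 and 85.2 CPM on d 1, 0.288, 31 and 128 CPM on d 2, and 6.79, 15.8 and 174 CPM on d 7. Group means were 24 ± 24.7 CPM (SD, n = 6) on d 0, 35.9 ± 36.1 CPM on d 1, 41 ± 46.9 CPM on d 2 and 53.2 ± 68.7 CPM on d 7, so that the SD exceeded the mean on every day. Single libraries carried these means, since calf 1802 held 61.5% of the group's COL1A1 counts on d 7 and calf 1789 held 55.6% on d 2.

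Weaned calves started high and ended low. Their COL1A1 level on d 0 was lowest at 1.33 CPM (4 counts, calf 1762), had a median of 66.6 CPM and was highest at 181 CPM (616 counts, calf 1809). By d 1 the lowest, median and highest levels were 0.267, 27.3 and 101 CPM. On d 2 they were 0, 2.97 and 22 CPM, and on d 7 they were 0, 4.08 and 27.3 CPM. Its weaned mean on d 0, 78.5 ± 79.2 CPM (SD, n = 6), was followed by 35.1 ± 39.6 CPM on d 1, 7.91 ± 9.27 CPM on d 2 and 9.52 ± 12 CPM on d 7. Without the d 7 libraries of calves 1758 and 1770 the last value was 8.87 ± 12.7 CPM (SD, n = 4). The treatment groups overlapped on every day for each of the 3 genes. For COL1A1 on d 0, 3 weaned calves lay above all control calves and 1 lay below all of them, whereas on d 2, 4 control calves lay above all weaned calves.

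COL1A2, the partner chain of COL1A1 in type I collagen, followed a similar course. In control calves its mean was 11.8 ± 15.7 CPM (SD, n = 6) on d 0, 18 ± 18.1 CPM on d 1, 18.4 ± 20.9 CPM on d 2 and 20.4 ± 24.2 CPM on d 7. In weaned calves it was 40.8 ± 40.5 CPM on d 0, 20.6 ± 25.9 CPM on d 1, 3.79 ± 3.83 CPM on d 2 and 3.62 ± 4.5 CPM on d 7, and 2.85 ± 3.9 CPM (SD, n = 4) on d 7 without calves 1758 and 1770. The highest weaned level was 89.5 CPM on d 0 (calf 1809) and 10.1 CPM on d 7 (library of calf 1770), while the highest control level was 42 CPM on d 0 (calf 1789) and 57.1 CPM on d 7 (calf 1802).

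COL3A1 likewise had the higher mean in weaned calves on d 0 and the lower on d 2 and 7, but its highest control mean was on d 1 rather than d 7. The control mean was 9.43 ± 8.93 CPM (SD, n = 6) on d 0, 22.1 ± 23.5 CPM on d 1, 16.9 ± 19.6 CPM on d 2 and 11.8 ± 16.9 CPM on d 7. The weaned mean was 27.5 ± 28.2 CPM on d 0, 21.1 ± 24.3 CPM on d 1, 3.49 ± 4.36 CPM on d 2 and 6.19 ± 7.79 CPM on d 7, the last being 4.33 ± 5.37 CPM (SD, n = 4) without calves 1758 and 1770. On d 7 the control calves ranged from 0 CPM (calf 1763) through a median of 6.22 CPM to 45.6 CPM (calf 1759), and the weaned calves from 0 CPM (calf 1769) through a median of 2.85 CPM to 19.3 CPM (library of calf 1770). Only 1 control calf lay above all weaned calves, fewer than the 2 seen for COL1A1 and COL1A2 on that day.

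**Figure D1:**
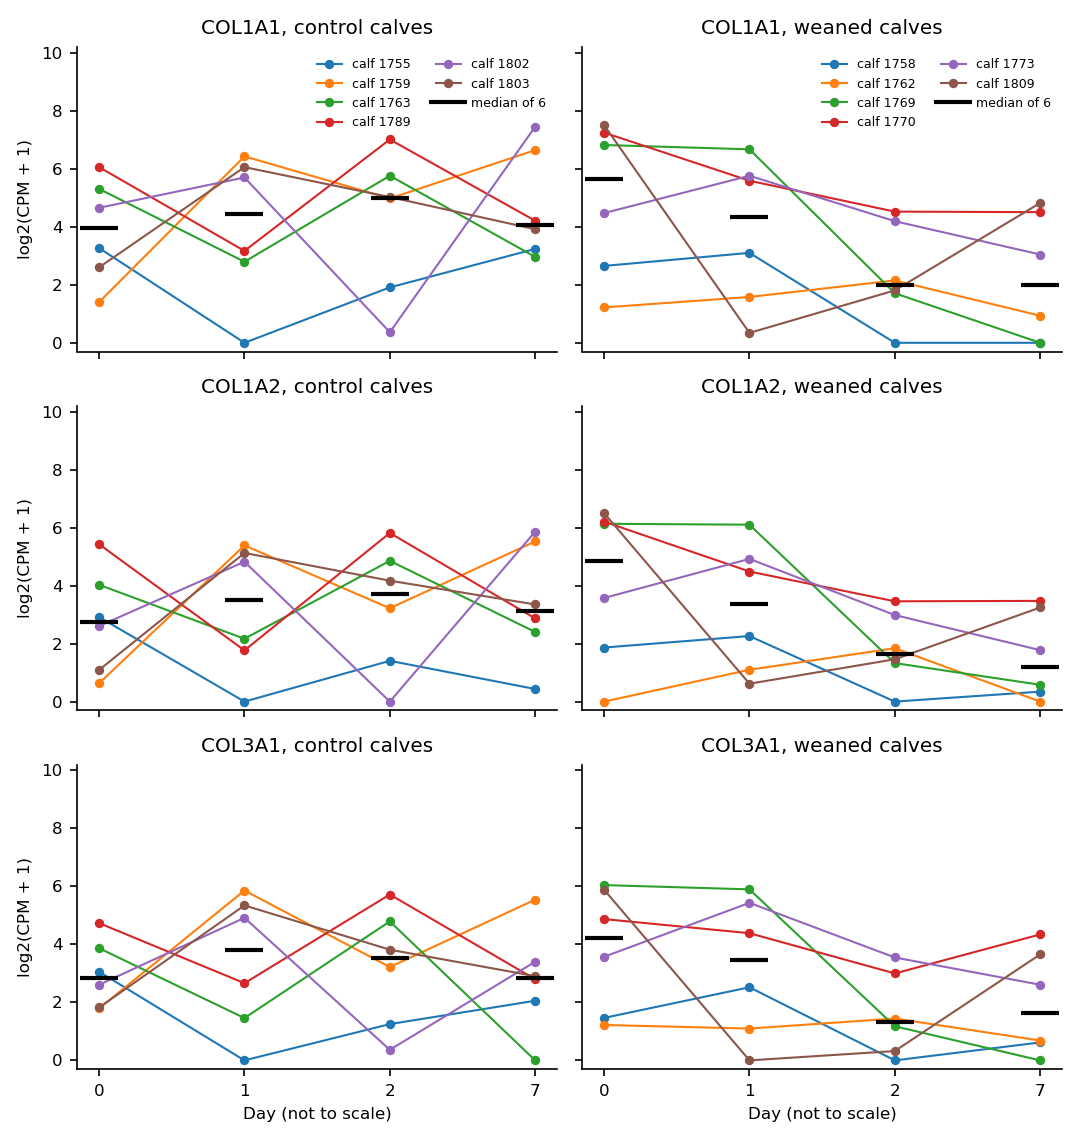
Level of COL1A1, COL1A2 and COL3A1 on the scale of log2(CPM + 1) by sampling day, with control calves on the left and weaned calves on the right. Each coloured line is 1 calf, points are its 4 libraries and black bars are the median of 6 calves. Lines cross repeatedly in both treatments, and weaned libraries are lower on d 2 and 7 than on d 0 in most calves.

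Individual calves moved by large steps between adjacent sampling days. Weaned calf 1809 had 616 COL1A1 counts on d 0, 1 on d 1, 10 on d 2 and 87 on d 7. Weaned calf 1769 had 490, 392, 9 and 0 counts on the same days. COL1A1 was thus near 0 in the former calf on d 1 and in the latter on d 7, and the former had the highest weaned level of d 7, 27.3 CPM. Control calf 1802 had 81, 159, 1 and 508 counts on d 0, 1, 2 and 7, and control calf 1759 had 6, 278, 44 and 165. Swings of this size therefore occurred in control calves as well. Weaned calf 1762 was low throughout, with 4, 7, 8 and 3 counts.

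The ratio of the highest to the lowest day of 1 calf shows the scale of these steps. For COL1A1 the d 0 level of weaned calf 1809 was at least 226-fold higher than its d 1 level, taking 3 counts as the floor in the low library. The d 0 and d 1 libraries of that calf were run on different flowcells. The d 7 level of control calf 1802 was at least 201-fold higher than its d 2 level. In the calves whose lowest day lay above that floor, the ratio ranged from 6.95 in weaned calf 1770, whose lowest library was the one labelled d 7, to 60.2 in control calf 1759. The day with the highest COL1A1 level was d 0 in 3 weaned calves, d 1 in 2 and d 2 in 1, and in control calves it was d 0 in 1, d 1 in 1, d 2 in 2 and d 7 in 2. No control day was the highest for most calves, and d 7 was the highest for none of the 6 weaned calves as labelled. The latter depends on the d 7 labels of calves 1758 and 1770. With these exchanged, d 7 (21.7 CPM) would be the highest day of calf 1758, whose highest level as labelled was 7.58 CPM on d 1.

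Relative to d 0 within the same calf, COL1A1 was lower on d 2 in 5 of 6 weaned calves and on d 7 in 6 of 6, or 4 of 4 without calves 1758 and 1770. COL3A1 gave the same numbers. COL1A2 was lower on d 2 in 5 weaned calves and on d 7 in 5 (3 of 4 without calves 1758 and 1770), calf 1762 having 0 counts on both d 0 and d 7. The median difference in log2(CPM + 1) of COL1A1 from d 0 was -2.69 on d 2 and -2.67 on d 7 in weaned calves, the latter being -2.05 without calves 1758 and 1770. In control calves COL1A1 exceeded its d 0 level on d 1 in 3 of 6 calves, on d 2 in 4 calves and on d 7 in 3 calves, and the median differences were -0.74, 0.70 and 0.64. On d 1 the weaned calves were also divided, with COL1A1 higher in 3 and lower in 3 and a median difference of 0.10.

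The 3 genes varied together. This was part of how they were chosen, and it is given as a description over 48 libraries that share calves and days. Pearson's r of log2(CPM + 1) was 0.967 for COL1A1 and COL1A2, 0.935 for COL1A1 and COL3A1, and 0.926 for COL1A2 and COL3A1. Spearman's rho was 0.966, 0.939 and 0.919 in the same order. The 2 chains of type I collagen were thus the closest pair. Group means did not carry the relation, since r of deviations from the group mean was 0.966, 0.948 and 0.926. Without the 2 libraries with the highest collagen level r was 0.962, 0.932 and 0.922, and over the 12 calf means it was 0.979, 0.944 and 0.936. Between consecutive sampling days of 1 calf, all 3 genes moved in the same direction in 32 of 36 steps.

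**Figure D2:**
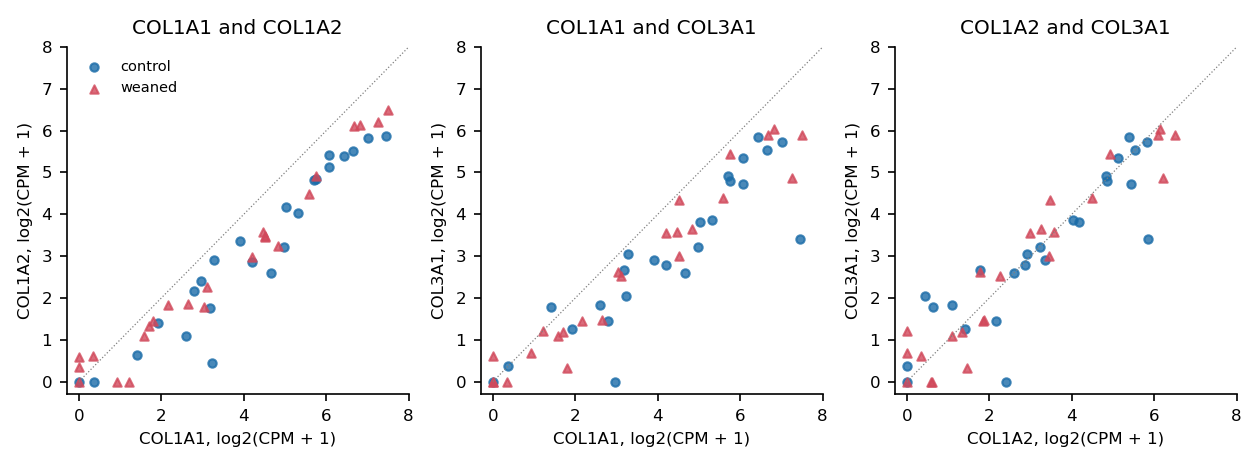
Pairs of the 3 collagen genes over 48 libraries, both axes on the scale of log2(CPM + 1), with circles for control and triangles for weaned libraries and a dotted line of equal values. Points of both treatments form 1 band in each panel, and the pairs with COL3A1 are wider than the pair of type I chains.

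By group, r of COL1A1 and COL1A2 lay between 0.912 (control, d 7) and 0.998 (weaned, d 0), while r of COL1A1 and COL3A1 lay between 0.765 (control, d 7) and 0.993 (weaned, d 1). By Pearson's r the control libraries of d 7 were thus the group in which these pairs were least alike, whereas by Spearman's rho COL1A1 and COL1A2 were least alike in weaned libraries of d 7 (0.754, against 0.886 in control libraries). In the control libraries of d 7, calf 1802 had 508 counts of COL1A1, 167 of COL1A2 and 28 of COL3A1, and calf 1763 had 27, 17 and 0. In these 2 libraries COL3A1 was low for the level of the type I chains.

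The share of each gene in the summed collagen counts shows this without reference to library size. Shares are compared only across libraries, since gene lengths were not available to set the genes on a common scale. Over all libraries COL1A1 made up 52.1%, COL1A2 25.7% and COL3A1 22.2% of 11197 counts. In the 34 libraries with at least 30 summed counts the COL3A1 share had a median of 24.3%. It was 3.98% in control calf 1802 on d 7 (28 of 703 counts, exact 95% binomial interval 2.66% to 5.71%) and 0% in control calf 1763 on d 7 (0 of 44, up to 8.04%). Weaned calf 1770 held both a low and the highest share, with 11.2% on d 0 (103 of 916, 9.27% to 13.5%) and 37.8% in the library labelled as its d 7 sample (65 of 172, 30.5% to 45.5%), which was most alike another calf. Of the 34 intervals, 4 lay below the share over all libraries, 8 lay above it and 22 held it. These intervals cover counting error only, and libraries of 1 calf are not independent.

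**Figure D3:**
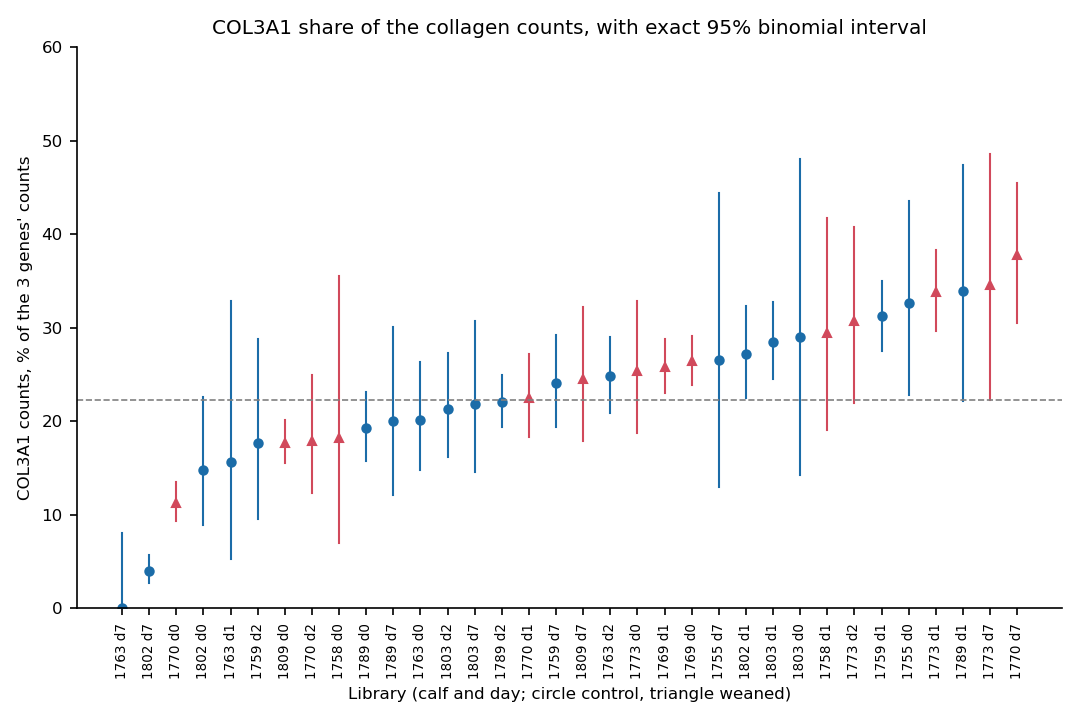
COL3A1 counts as a percentage of the counts of the 3 collagen genes in the 34 libraries with at least 30 such counts, in ascending order, with exact 95% binomial intervals, circles for control and triangles for weaned libraries. The dashed line is the share over all libraries, 22.2%. The 2 lowest points are control calves 1763 and 1802 on d 7, whose intervals end at 8.04% and 5.71%.

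The fit across all genes (edgeR's quasi-likelihood test, with Benjamini-Hochberg adjustment over all genes tested) gave log2 changes with standard errors for 13 comparisons. The calling threshold was an adjusted p below 0.05 together with 2-fold or more. No gene was called in 12 of the 13 comparisons (percent called 0%), in which 107 to 4992 genes had an unadjusted p under 0.05 and DESeq2 called 0 to 1292. On d 7 relative to d 0 in control calves, 516 of 13829 genes were called (3.73%). None of the 3 collagen genes was called in any comparison. They were chosen on these contrasts, and nothing is read from that count. The comparisons share libraries and are not independent of one another.

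Between treatments, the direction turned over the week. Before housing, weaned calves had the higher level, by 1.73 ± 0.88 (log2 change ± SE) for COL1A1, 1.82 ± 0.94 for COL1A2 and 1.58 ± 0.77 for COL3A1. On d 1 the changes were -0.06 ± 1.03, 0.17 ± 1.01 and -0.10 ± 1.05, all within 1 SE of 0. On d 2 weaned calves had the lower level, with -2.38 ± 0.97, -2.29 ± 0.92 and -2.32 ± 0.96. The d 0 difference preceded both treatments, so the later values start from unequal baselines. On d 7 COL1A1 and COL1A2 were still lower in weaned calves, at -2.48 ± 0.97 and -2.47 ± 0.92, whereas COL3A1 differed by -0.82 ± 0.94, less than 1 SE. Without the d 7 libraries of calves 1758 and 1770 the d 7 values were -2.60, -2.83 and -1.34. With flowcell as a block the d 0 differences were 0.82, 1.17 and 0.63, those of COL1A1 and COL3A1 being below their unblocked SE. The same block gave 0.89, 1.02 and 0.90 on d 1, turning the sign of COL1A1 and COL3A1, and on d 7 it gave -3.95, -3.50 and -2.61. In this fit a calf does not inform the difference between treatments if its flowcell held no calf of the other treatment on that day. On d 7 weaned calves 1770 and 1809, highest of the weaned calves in COL1A1 (21.7 and 27.3 CPM), were each alone. Control calves 1789 and 1802 (17.5 and 174 CPM) shared flowcell F on d 7 with no weaned calf, and calf 1802 was the highest of that day. On d 0 the calves that did not inform the difference were control calf 1755 and weaned calf 1769 (8.63 and 112 CPM). Flowcell adjustment and the change in calves compared cannot be told apart.

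Within weaned calves the largest changes fell on d 2 and 7. The changes and SEs below come from a fit without a term for calf, although the same calves were sampled on each day. The change from d 0 was -1.20 ± 0.98 for COL1A1, -1.03 ± 0.98 for COL1A2 and -0.43 ± 0.93 for COL3A1 on d 1. On d 2 it was -3.32 ± 1.02, -3.44 ± 1.01 and -3.02 ± 0.97, and on d 7 it was -3.08 ± 1.10, -3.53 ± 1.07 and -2.18 ± 0.98. Without the d 7 libraries of calves 1758 and 1770 the last values were -3.20, -3.89 and -2.72. In control calves the changes from d 0 were 0.59 ± 0.92, 0.61 ± 0.98 and 1.23 ± 0.89 on d 1 and 0.79 ± 0.84, 0.68 ± 0.88 and 0.88 ± 0.76 on d 2. For d 7 they were 1.15 ± 0.76, 0.77 ± 0.82 and 0.22 ± 0.73. These d 7 values rested on single calves, since they were 0.20 and -0.13 for COL1A1 and COL1A2 without calf 1802 and -1.09 for COL3A1 without calf 1759, and the replicate block gave -0.14 for COL3A1. Weaned and control calves therefore differed most in their change from d 0 on d 2 and 7. The difference of changes, weaned minus control, was -1.75 ± 1.48 for COL1A1, -1.60 ± 1.52 for COL1A2 and -1.64 ± 1.42 for COL3A1 on d 1. It was -4.10 ± 1.44, -4.10 ± 1.47 and -3.89 ± 1.33 on d 2, and -4.21 ± 1.44, -4.28 ± 1.47 and -2.38 ± 1.33 on d 7, or -4.32, -4.63 and -2.89 on d 7 without the libraries of calves 1758 and 1770. With calf as replicate block the difference of changes was -3.73, -3.73 and -3.37 on d 2 and -3.92, -4.18 and -1.98 on d 7.

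**Figure D4:**
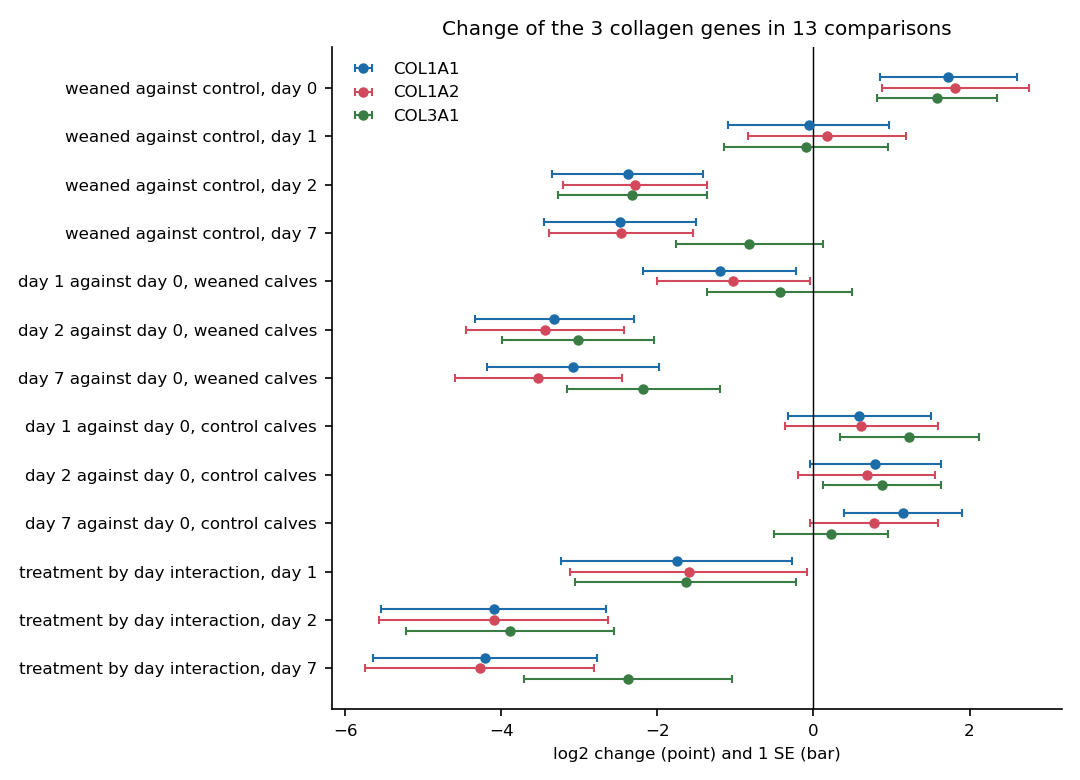
Log2 change (points) and 1 SE (bars) of COL1A1, COL1A2 and COL3A1 in 13 comparisons fitted across all genes. The gap between COL3A1 and the type I chains is widest in the comparison of treatments on d 7 and the d 7 interaction, and the difference of changes on d 2 reaches -4.10 for both type I chains.

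Single libraries moved several of these values. Leaving out control calf 1789 raised the d 0 difference between treatments to 2.36 for COL1A1, 2.88 for COL1A2 and 2.19 for COL3A1. Leaving out control calf 1759 turned the d 7 difference of COL3A1 from -0.82 to 0.30, and leaving out control calf 1802 brought that of COL1A1 from -2.48 to -1.54. The d 2 changes of weaned calves from d 0 lay between -3.87 and -2.68 for COL1A1 and between -3.89 and -2.37 for COL3A1 when any 1 calf was left out. The biological coefficient of variation of the 3 genes was between 0.86 and 1.36 across the 13 fits. Without weaned calf 1809, 1137 of 13852 genes (8.21%) were called between treatments on d 7, and COL1A1 and COL1A2, 2 of the 3 collagen genes, were among them. In the d 7 interaction without that calf, 1634 of 14646 genes (11.2%) were called, 1 of the 3 collagen genes among them. The 3 genes were chosen on these contrasts, and nothing is read from their calls.

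Few other genes of connective tissue had a symbol. Symbols were known for 643 genes, all of them from lists the study had called on these samples, so the members of each list below that could be found are not an independent sample of it. Of 44 collagen chains 9 were found, the other 6 being COL4A2, COL5A2, COL5A3, COL6A2, COL12A1 and COL14A1. None of 27 collagen biosynthesis genes was found, and of 14 collagen-degrading enzymes and inhibitors only MMP2 and TIMP4. Among 10 collagen receptors ITGA2 and ITGA11 were found, among 17 genes of TGF-beta signalling and type I collagen transcription TGFBR1, and among 22 fibroblast and matrix genes DCN, LUM, FBN1, BGN and PDGFRB. All of those found are described.

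The collagen chains split by level and by course. COL6A2, a chain of the beaded-filament type VI collagen, had 274 counts and an r of 0.60 with the mean log2(CPM + 1) of the 3 fibrillar genes. COL5A2, a chain of the type V collagen that is built into type I fibrils, had 75 counts (r = 0.64), and COL12A1, which encodes a collagen associated with fibril surfaces, had 25 counts (r = 0.62). COL14A1, also a fibril-associated collagen, had 2205 counts with no library at 0, and its r was -0.04. COL5A3 had 557 counts (r = 0.35), and the basement membrane chain COL4A2 had 391 (r = -0.18). The 3 chains with the highest r were thus sparse, with at most 28 counts in a library for COL6A2.

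Among enzymes that act on collagen, MMP2, a gelatinase that cleaves denatured collagen, had 127 counts, at most 17 in a library and 0 in 18 libraries. Its r was 0.84 over the 48 libraries and 0.84 within groups. MMP2 counts in weaned calf 1809 were 16 on d 0 and 0 on d 1, and in weaned calf 1769 they were 4, 17, 0 and 0 on d 0, 1, 2 and 7. COL1A1 was also high and then near 0 in these libraries. TIMP4, an inhibitor of such enzymes, had 504 counts, no library at 0 and an r of -0.08. The collagen-binding integrin chain ITGA2 had 158 counts (r = -0.29), and ITGA11, another such chain, had 17 counts and was at 0 in 41 libraries (r = 0.46). TGFBR1, a receptor of the growth factor that induces type I collagen in fibroblasts, had 5105 counts and an r of -0.27.

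Of the fibroblast and matrix genes, DCN encodes decorin, a proteoglycan that binds type I collagen fibrils. It had 136 counts, 0 in 28 libraries and at most 25, found in weaned calf 1769 on d 1. The r of DCN was 0.73, and 0.76 within groups. BGN, the related proteoglycan biglycan, had 93 counts (r = 0.67), PDGFRB, a growth factor receptor of mesenchymal cells, had 36 counts (r = 0.59), and LUM, the proteoglycan lumican, had 20 counts (r = 0.40). FBN1, the microfibril protein fibrillin, was set apart from these with 8645 counts, a range from 2.5 to 205 CPM and an r of 0.00.

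The summed level of DCN, LUM, BGN and PDGFRB per weaned library was 0.587 to 5.95 CPM (median 1.76 CPM) on d 0 and 0 to 11.1 CPM (median 0.978 CPM) on d 1. Its highest value was 1.25 CPM on d 2 and 1.26 CPM on d 7. In control calves the highest sums were 2.71 CPM on d 0, 6.74 CPM on d 1, 4.68 CPM on d 2 and 3.6 CPM on d 7. The log2 sum correlated with the fibrillar collagens at r = 0.87 over 48 libraries. The 4 genes are part of the matched list, split off after their values were seen because FBN1 held most of the counts of the sum, and with FBN1 the r was 0.06. These markers moved with the 3 collagen genes, and their part in the result was not tested. Without the 3 fibrillar genes, 0 of the 7 to 11 collagen chains and fibroblast genes tested were called in each of the 13 comparisons, where 0 to 4 had an unadjusted p under 0.05 (edgeR) and DESeq2 called 0. An exact test with a common dispersion, 1 value shared by all genes, called FBN1 between treatments on d 1 (40 of 14078 genes called). It called FBN1 and DCN on d 2 (75 of 13949) and FBN1 and COL5A3 on d 7 (865 of 13932). In weaned calves it called DCN on d 2 (62 of 13984) and d 7 (38 of 14026), and in control calves FBN1 on d 2 (18 of 13859). Nothing is read from these calls, which the main test did not make. Without weaned calf 1809, BGN and FBN1 were called between treatments on d 7 (8.21% of all genes called), and BGN and PDGFRB in the d 7 interaction (11.2%). The median log2 change of the collagen chains and fibroblast genes tested in weaned calves from d 0 was -1.08 on d 2 (9 genes tested, 7 lower, median of all genes 0.03). On d 7 it was -0.60 (8 genes tested, 6 lower, median of all genes 0.04). Genes entered with at least 10 counts over both days, and some reached this mainly through d 0. In weaned calves DCN had 24 counts on d 0 and 2 on d 2, COL5A2 had 12 and 3, and PDGFRB had 9 and 2. The filter thus favours a fall, and nothing is read from these medians. With filterByExpr the d 2 median was 0.55 over 3 genes tested, and without calves 1758 and 1770 the d 7 median was -0.33 with 5 of 8 genes lower.

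Tests of single genes of these lists passed the adjusted threshold once. TGFBR1 fell by 1.23 ± 0.27 on the log2 scale on d 7 relative to d 0 in control calves (edgeR's quasi-likelihood test, adjusted p = 0.0222), a comparison in which 3.73% of all genes were called and in which no gene was called once control calf 1755, 1759 or 1763 was left out. The change of DCN in weaned calves was -3.08 ± 1.17 on d 2 (edgeR adjusted p = 0.944), that of MMP2 was -2.33 ± 1.02 (edgeR adjusted p = 0.944), and that of BGN was -1.66 ± 0.66 (edgeR adjusted p = 0.944). FBN1 went the other way between treatments on d 2, at 3.12 ± 0.91 in weaned relative to control calves (edgeR adjusted p = 0.95). None of these 4 changes passed the test.

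Markers of other cell types that blood can hold were few as well. The erythroid genes HBB, ALAS2 and SLC4A1, 3 of 7 listed, had an r of 0.42 as a log2 sum, and their sum ranged from 2.18 to 65.3 CPM. Singly their r was 0.38, 0.35 and 0.20. The log2 sum of the fibroblast and matrix list had an r of 0.06 with FBN1 and 0.87 without it. PPBP, the one platelet gene of 8 found, had an r of 0.24 and ranged from 0.249 to 29 CPM. Of the endothelial genes, 2 of 9 were found, KDR (r = -0.13) and TEK (r = -0.22), and MYLK, 1 of 8 smooth muscle and pericyte genes, had an r of 0.23. Lists of keratinocyte, skeletal muscle and adipocyte genes had no member with a symbol. Their presence in the libraries was not examined, and whether skin or vessel wall cells contributed to the collagen counts was not tested.

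**Figure D5:**
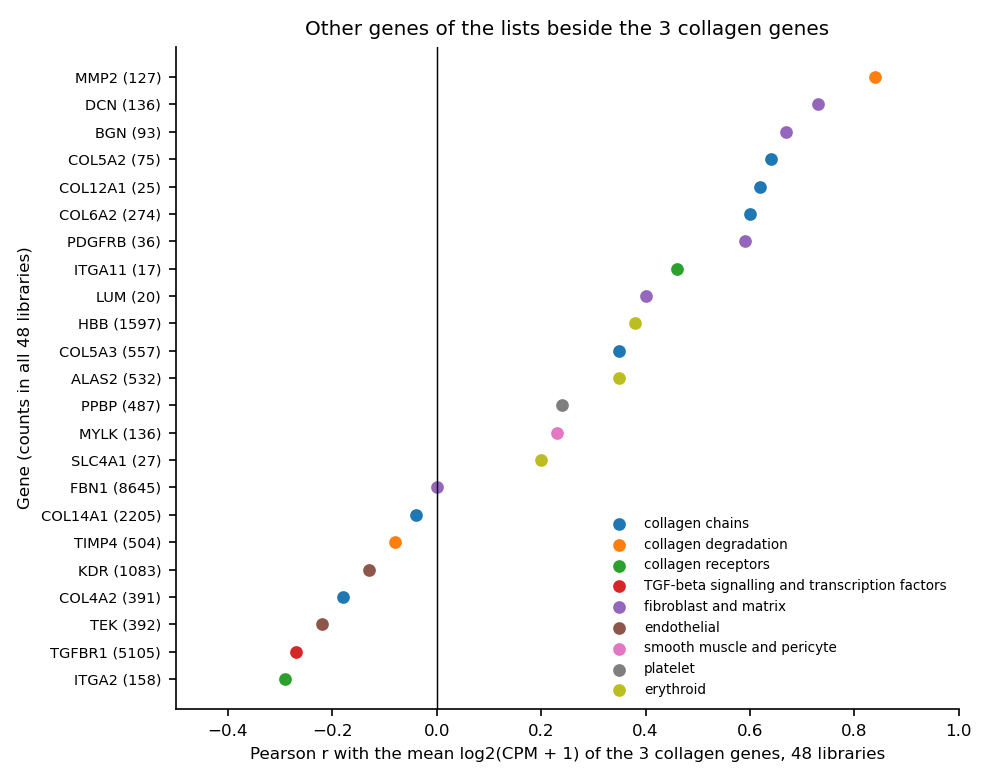
Pearson's r over 48 libraries between log2(CPM + 1) of each matched list gene and the mean log2(CPM + 1) of COL1A1, COL1A2 and COL3A1, coloured by list, with total counts in brackets. MMP2 (0.84) and DCN (0.73) lie at the top, FBN1 lies at 0.00, and ITGA2 (-0.29) lies at the bottom.

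Beyond the lists, 12874 other genes with at least 100 counts were ranked by the same r. Its median was -0.01 and its 99th percentile was 0.40, and 4 genes reached 0.7. The first was ENSBTAG00000014835, which has no symbol here, with 1305 counts, none of the libraries at 0 and an r of 0.87. MMP2 and DCN came next, followed by ENSBTAG00000018563, also without a symbol, with 107 counts and an r of 0.71. Among the 505 genes with a symbol, the 10 most alike were MMP2, DCN, COL6A2 (0.60), C1S (0.56), TGM2 (0.42), CLU (0.41), TAC3 (0.40), HBB (0.38), FZD4 (0.38) and ADM (0.38). C1S encodes a protease of the classical complement pathway, and TGM2 a transglutaminase that cross-links matrix and other proteins. After C1S the values were near the 99th percentile of all genes, so that 4 of the named genes ranked stood apart. These 4 were also the first 4 by Spearman's rho, within groups, and without the 2 libraries with the highest collagen level. List genes with fewer than 100 counts were not ranked. Among them BGN (0.67), COL5A2 (0.64), COL12A1 (0.62) and PDGFRB (0.59) had a higher r than C1S. Points of these correlations share libraries and calves, and the lowest counts among them are sparse.

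Depth and flowcell were set beside the collagen level as well. The r between log2 total counts and the mean log2(CPM + 1) of the 3 genes was -0.12 over 48 libraries. Libraries were run on 8 flowcells with 1 to 3 calves each, and several calves were split over more than 1 flowcell. The d 0 library of weaned calf 1809 (181 CPM of COL1A1) was on flowcell G. Its d 1, 2 and 7 libraries (0.267, 2.5 and 27.3 CPM) were on flowcell H. Those of control calf 1802 on d 2 and 7 (0.288 and 174 CPM) were both on flowcell F. Flowcell, calf and, in split calves, day can thus hardly be told apart. The median COL1A1 level per flowcell ranged from 2.5 to 47.1 CPM, and the highest level was 8.63 CPM on flowcell A and 27.3 CPM on flowcell H, each with 3 libraries of 1 calf, and between 85.2 and 181 CPM on the other 6 flowcells, with 7 libraries each.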

How the data were processed

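Poly(A) RNA of total leukocytes, from blood whose red cells had been lysed, was sequenced as single reads of 36 bases. The deposited counts per Ensembl gene were made by the authors with CASAVA 1.6, FastQC 0.9.1, Bowtie 0.12.7 (no mismatch, unique hits, genome Btau4.0) and HTSeq 0.4.6p2 (union mode), after keeping 1 read per genome position, which caps the count of an abundant gene. Whether strand was used is not given in the sources used here, so reads of overlapping antisense genes cannot be told apart. The authors tested pairs of groups with edgeR 1.6.12.

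Counts were used as deposited, with TMM normalisation and the quasi-likelihood test of edgeR 4.0.16 (R 4.3.3) on genes with at least 10 counts over the libraries compared, a call needing an adjusted p under 0.05 and a 2-fold change. SE is the log2 change divided by the square root of F. CPM uses TMM-scaled library sizes over 48 libraries. The replicates are 6 separate calves per treatment. DESeq2 1.42.0 and the other alternatives are given in the closing section. On simulated data with a biological coefficient of variation of 0.3, below that of the collagen genes (0.86 to 1.36), 200 genes changed 4-fold were recovered at 99.5% for the d 2 treatment comparison (13972 genes) and 91.5% for the d 7 interaction (14746 genes). The members and lists were chosen with earlier results of these data known.

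Calf numbers pair libraries of 1 animal. Over genes, what set a calf apart from its group on d 0 correlated with the same on d 1, 2 or 7 at a mean r of 0.42, 0.24 and 0.21 in weaned and 0.46, 0.31 and 0.22 in control calves. Symbols came from human orthologues in the study's supplementary lists, since the reference table paired none of the gene identifiers. Named were the 3 collagen genes, all list genes with a symbol, the 10 named genes most alike and the 2 unnamed genes among the 4 most alike of all. Gene lengths, coordinates and sequences were not used here.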

Additional observations from a re-analysis of the deposited data

Results flagged for a closer look

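Of 24 groups (3 genes in 8 groups of 6 libraries), 2 held a library whose gap to its nearest neighbour exceeded 0.625 of the group's range, Dixon's 95% critical value. Chance flags about 1 in 20 groups of normally distributed values. That rate need not hold here, since CPM was skewed (control COL1A2 on d 0 had a mean of 11.8 and a median of 5.81 CPM). The 24 groups are also not independent, since the 3 genes varied together. Both were control libraries. COL1A2 in calf 1789 on d 0 was 42 CPM, against a group median of 5.81 CPM. COL3A1 in calf 1759 on d 7 was 45.6 CPM, against a group median of 6.22 CPM. The first library also had the highest COL1A1 (65.6 CPM) and COL3A1 (25.6 CPM) level of its group.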

How the results depend on the processing

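The 594 alternative values of the log2 changes of the 3 collagen genes moved from the reported ones by less than the pooled SD between calves of a group (2.24, 2.04 and 1.94 log2 units for COL1A1, COL1A2 and COL3A1), a margin too wide to show stability. The sign turned in 25 of them, 18 of which were between treatments on d 1. The paired fit (calf as replicate block) gave -3.18, -3.12 and -2.92 for d 2 relative to d 0 in weaned calves, called 2 genes for weaned d 1 against 0 and 536 for control d 7, and changed no call of a collagen gene. Counts of called genes moved with the test. DESeq2 called 26 (treatments, d 7), 1 (weaned, d 1), 1 (weaned, d 7), 1292 (interaction, d 7) and 617 in control calves on d 7, where 516 were reported. Of the 13829 to 14078 genes tested per comparison, an exact test with a common dispersion called 68, 40, 75 and 865 between treatments on d 0, 1, 2 and 7. It called 64, 62 and 38 in weaned calves on d 1, 2 and 7, and 18 and 743 in control calves on d 2 and 7. It called 3 of the 3 collagen genes between treatments on d 0 and d 2 and in weaned calves on d 2 and d 7, 2 of the 3 between treatments on d 7 and in weaned calves on d 1, and 1 in control calves on d 7. The 3 genes were chosen on these contrasts, and nothing is read from these calls. A common dispersion is 1 value shared by all genes. Why the calls of the exact test differed from those of the main test was not tested. Leaving out 1 calf gave 0 to 1137 genes between treatments on d 7, 0 to 1086 in control calves on d 7, and 0 to 1634 for the d 7 interaction, the highest 1137 and 1634 without weaned calf 1809 and the 1086 without control calf 1803. The r of COL1A1 and COL1A2 was 0.929 on log2(CPM + 0.1). At low depth, 7 to 10 of 48 libraries had 3 counts or fewer per gene, which bounds but does not set a level. Of the 10 most alike named genes, 7 to 8 remained among the first 10 under 3 other rankings.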
